A study of Homo sapiens with 27 samples.

Results

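The genes described here are 9 components and receptors of the complement system, measured in a human macrophage model treated with a bacterial stimulus with or without a glucocorticoid. They are the recognition chains C1QA, C1QB and C1QC, the protease and convertase components C2, CFB and CFD, the central component C3, and the anaphylatoxin receptors C3AR1 and C5AR1. They were taken by symbol from the 20453 Ensembl genes counted in the study, and all 9 were found. The cells were THP-1, a human monocytic leukaemia line, made macrophage-like by the phorbol ester PMA (10 ng/ml, 24 h) and then given fresh medium. The LPS+Dex group received 1 µM dexamethasone, a synthetic glucocorticoid, together with 100 ng/ml of lipopolysaccharide (LPS, a ligand of Toll-like receptor 4), the LPS group received LPS without it, and the vehicle group received the solvents, each for 3 h. Cells given dexamethasone without LPS are not among these groups, and dexamethasone is compared here on top of LPS. Poly(A) RNA-seq was made from 4 libraries per treatment and ribosome profiling, in which the stretches of mRNA covered by translating ribosomes (footprints) are sequenced, from 5 libraries per treatment. The labels do not state whether replicates were separate cultures, so the p-values measure the spread between these samples, which may be technical.

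Complement is a cascade of plasma proteins that marks and lyses microbes and clears debris. C1q, built from the A, B and C chains, recognises antibody bound to a target and, with the proteases C1r and C1s, opens the classical pathway, in which C2 is cleaved to form a convertase that splits C3. In the alternative pathway factor D (CFD) cleaves factor B (CFB) bound to C3b, which forms a second kind of convertase. Cleavage of C3 and C5 releases the anaphylatoxins C3a and C5a, small peptides that act on myeloid cells through the G protein-coupled receptors C3AR1 and C5AR1. The liver makes most circulating complement, while macrophages are a main source of C1q.

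RNA libraries held 19 to 30.7 M counts and footprint libraries 11.5 to 26.1 M. A count of 3, used as the floor below which a level is not read, corresponds to 0.0978 to 0.158 counts per 1 M counts (CPM) in RNA and 0.115 to 0.261 CPM in footprints, and counting floors and intervals cover counting error only. As a check of the labels, FKBP5, a gene induced by glucocorticoids, averaged 1660 ± 196 CPM in LPS+Dex RNA, 88.7 ± 48.1 CPM in LPS RNA and 20.4 ± 6.23 CPM in vehicle RNA, and TNF, an LPS-induced cytokine, averaged 770 ± 54.3, 1210 ± 148 and 53.3 ± 13.4 CPM in LPS+Dex, LPS and vehicle RNA (SD, n = 4 each). Of 10 monocyte and macrophage markers 8 exceeded 1 CPM in RNA, but the tissue macrophage receptor MRC1 stayed at or under 0.391 CPM, and EPCAM, an epithelial marker, was listed at 0. MARCO, also of the 10, averaged 1.29, 0.704 and 0.316 CPM in LPS+Dex, LPS and vehicle RNA. The 10 summed to 2440 to 2600, 2330 to 2560 and 3140 to 3690 CPM in the same order. Of markers listed for other cell types, 2 of 3 endothelial, 1 of 4 T cell and 3 of 4 hepatocyte genes exceeded 1 CPM. None of 3 B cell, 3 epithelial and 2 erythroid markers did. Endothelial PECAM1 averaged 157, 141 and 340 CPM and CD4, of the T cell list, 19.2, 21.5 and 43.9 CPM in LPS+Dex, LPS and vehicle RNA. The summed level of 3 fibroblast markers was 33.9 to 41.3 CPM in LPS+Dex, 13.5 to 15.2 CPM in LPS and 7.2 to 10 CPM in vehicle RNA, with COL1A1 and PDGFRA above 1 CPM and COL1A2 at or under 0.228 CPM on average, and its part in the results was not tested. The 3 footprint libraries numbered 4, 1 in each treatment, stood apart from the rest: C3, CFD, C3AR1 and C5AR1 were 1.89 to 4.48 times the mean of the other libraries of their treatment there. Footprint results are therefore also given without these 3 libraries. In bulk RNA, fewer cells of a type and less RNA per cell cannot be told apart.

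The 3 C1q chains and both anaphylatoxin receptors were higher with LPS+Dex than with LPS in RNA, with no overlap between the libraries of the groups, as for 13.6% of the 18177 genes with an RNA count, while the differences of C2, C3 and CFD were smaller than their SE. Of the 9 genes 7 passed the filter on low counts in each assay, and C1QA and CFB did not. In RNA, 4 of the 7 tested genes, C1QB, C1QC, C3AR1 and C5AR1, were higher in LPS+Dex than in LPS and none was lower, where 15.5% of the 13327 genes tested rose, 15.4% fell and 30.9% changed in either direction. In footprints 2 of 7, C1QB and C3AR1, were higher and none lower, where 9.08% of 12197 genes rose, 7.99% fell and 17.1% changed. With the replicate number as a block, or without the libraries numbered 4, C1QC and C5AR1 were called as well, 4 of 7 in all, and the share of all genes called was 30.9% and 31.5%. The median log2 difference of the tested genes was 0.41 in RNA and 0.63 in footprints, beside 0.01 and 0.02 over all genes tested. C1QB reached the filter level of 0.459 CPM in 4 of 4 LPS+Dex RNA libraries, in 1 of 4 LPS libraries and in 0 of 4 vehicle libraries, and C1QC in 4, 0 and 0. Both chains were thus tested in RNA, and C1QB also in footprints, because they were high with dexamethasone. The counts above are given as description.

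**Figure D1:**
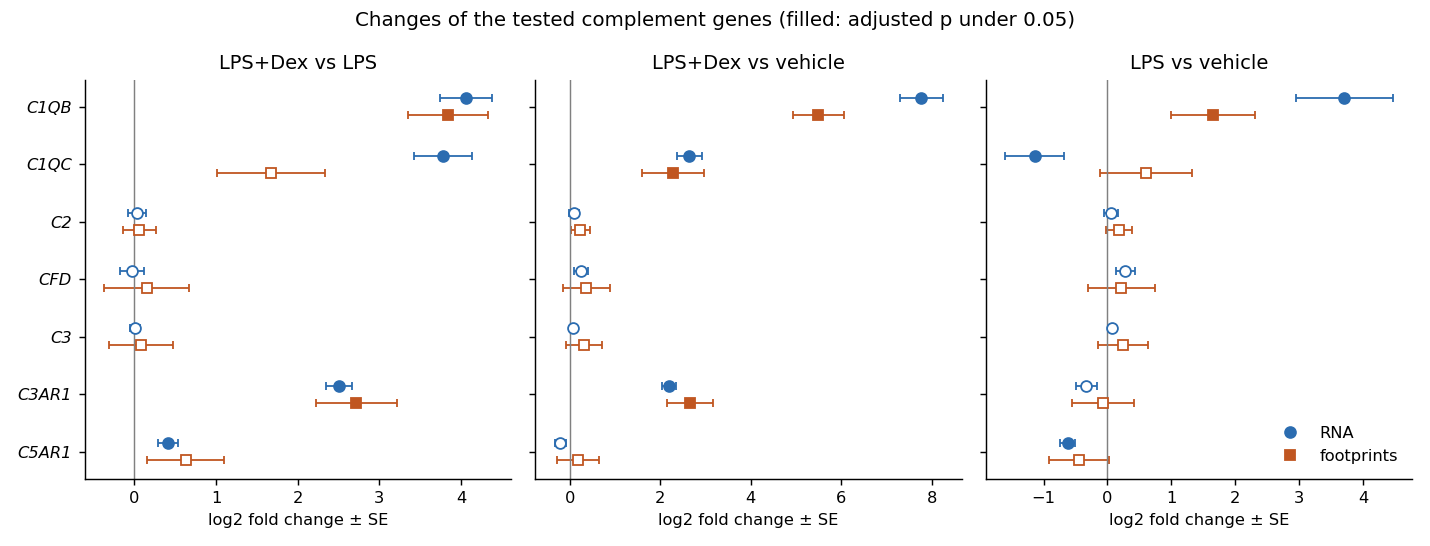
Log2 differences (x axis) of the tested complement genes (rows) for LPS+Dex against LPS, LPS+Dex against vehicle and LPS against vehicle, in RNA (circles) and footprints (squares), with bars of 1 SE and filled symbols at an adjusted p under 0.05. C1QB and C3AR1 were filled in both assays in both panels with dexamethasone, while C2, C3 and CFD were unfilled throughout.

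C1QB, which encodes the B chain of C1q (ENSG00000173369, chromosome 1, 22653236 to 22661637, GRCh38.p14), changed more than any other of the 7 tested genes in RNA. Its RNA level was 3.57, 4.88, 5.85 and 5.99 CPM in the 4 LPS+Dex libraries, 0.133, 0.312, 0.183 and 0.56 CPM in the LPS libraries and 0, 0, 0.029 and 0.0345 CPM in the vehicle libraries. The lowest LPS+Dex library lay above the highest LPS library, and the lowest LPS library above the highest vehicle library. LPS+Dex exceeded LPS by 4.06 ± 0.32 on the log2 scale (SE, edgeR's quasi-likelihood test, adjusted p = 3.2e-07), a fold of 16.7. C1QB passed the filter through its LPS+Dex libraries in both assays, so its p-values are given as description. Vehicle libraries held 2 C1QB counts in all against 391 in the LPS+Dex libraries, a ratio of 242 with an exact 95% interval of 66.5 to 2000. LPS alone gave 26 counts against those 2, a ratio of 13.8 with an interval of 3.46 to 120 (adjusted p = 0.00079 in the same test). The level with LPS alone was thus close to the counting floor, and dexamethasone with LPS brought C1QB well above it.

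Footprints on C1QB followed the same order. They were 5.14, 4.6, 5.87, 8.91 and 5.69 CPM in LPS+Dex, 0.17, 0.348, 0, 0.789 and 0.823 CPM in LPS, and 0.0724, 0.0806, 0.15, 0.209 and 0.158 CPM in vehicle. LPS+Dex libraries did not overlap the others, whereas LPS and vehicle libraries did. The LPS+Dex sum of 561 counts was 35 times the vehicle sum of 16, scaled by library size (exact 95% interval 21.4 to 61.7). The log2 difference between LPS+Dex and LPS was 3.84 ± 0.49 (SE, adjusted p = 4.7e-05), and 3.92 ± 0.4 without the libraries numbered 4. For LPS against vehicle it was 1.65 ± 0.66 (SE, adjusted p = 0.047), from 44 counts against 16. This last call was lost when any 1 of 11 libraries was left out (1, 2, 3 and 5 of vehicle and of LPS+Dex, and 2, 4 and 5 of LPS), with differences of 1.17 to 1.98 and adjusted p-values of 0.0035 to 0.18 over all 15 omissions.

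C1QC, the gene of the C chain (ENSG00000159189, chromosome 1, 22643633 to 22648108), lies between the other chain genes and was also higher with dexamethasone. Its RNA level was 1.61, 1.43, 2.06 and 1.52 CPM in LPS+Dex, 0.0443, 0.208, 0.0458 and 0.172 CPM in LPS, and 0.251, 0.33, 0.29 and 0.172 CPM in vehicle. Every LPS+Dex library was above every library of the other groups. LPS+Dex exceeded LPS by 3.78 ± 0.35 on the log2 scale (SE, adjusted p = 1.4e-06) and vehicle by 2.64 ± 0.28 (SE, adjusted p = 2.4e-06). C1QC reached the RNA filter level in LPS+Dex libraries only, so its RNA p-values are given as description. Against vehicle, LPS alone was lower by -1.14 ± 0.46 (SE, adjusted p = 0.043), unlike C1QB, which was higher. The difference between C1QB and C1QC was not tested, and this fall rested on 10 counts with LPS against 29 with vehicle. It was no longer called on leaving out 1 of 8 libraries (vehicle 1, 2 or 3, LPS 1, LPS 3, or LPS+Dex 1, 2 or 4), with differences of -1.49 to -0.86 and adjusted p-values of 0.022 to 0.13 over the 12 omissions.

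Footprints on C1QC were 1.08, 1.83, 1.32, 5.32 and 1.57 CPM in LPS+Dex, 0.254, 0.0994, 0.492, 2.23 and 0.549 CPM in LPS, and 0.326, 0.242, 0.413, 1.11 and 0.317 CPM in vehicle. In each treatment the library numbered 4 was the highest. The log2 difference between LPS+Dex and LPS was 1.67 ± 0.66 over all libraries (SE, adjusted p = 0.1), 1.8 ± 0.31 with the replicate number as a block (adjusted p = 0.00026) and 2.02 ± 0.37 without the libraries numbered 4 (adjusted p = 0.00017). Leaving out LPS replicate 4 alone also gave a call, at 2.6 (adjusted p = 0.0063). Against vehicle the C1QC footprints of LPS+Dex were higher by 2.28 ± 0.68 (SE, adjusted p = 0.013).

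C1QA, the gene of the A chain (ENSG00000173372, chromosome 1, 22636463 to 22639678), did not pass the filter and was near the counting floor. The 4 LPS+Dex RNA libraries held 9, 13, 14 and 11 counts, the LPS libraries 1, 0, 3 and 1, and the vehicle libraries 2, 1, 3 and 6. The counts with LPS+Dex lay above those of both other groups. Scaled by library size, the LPS+Dex sum was 10.9 times that of LPS (exact 95% interval 4.37 to 35.2) and 4.85 times that of vehicle (2.53 to 10). In a fit without the filter its log2 difference was 3.28 ± 0.55 against LPS (SE, adjusted p = 0.00027) and 2.44 ± 0.46 against vehicle (adjusted p = 0.00036). Its footprints overlapped between the groups, at 0.0797, 0.278, 0.165, 1.1 and 0 CPM in LPS+Dex and 0.0424, 0.0497, 0, 0.329 and 0.0392 CPM in LPS, and the log2 difference without the filter was 1.87 ± 1.11 (SE, adjusted p = 0.37). Summed, 27 LPS+Dex counts against 8 LPS counts gave a ratio of 3.92 (exact 95% interval 1.73 to 9.99), an interval that leaves out the spread between libraries, among which LPS+Dex replicate 4 was the highest.

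**Figure D2:**
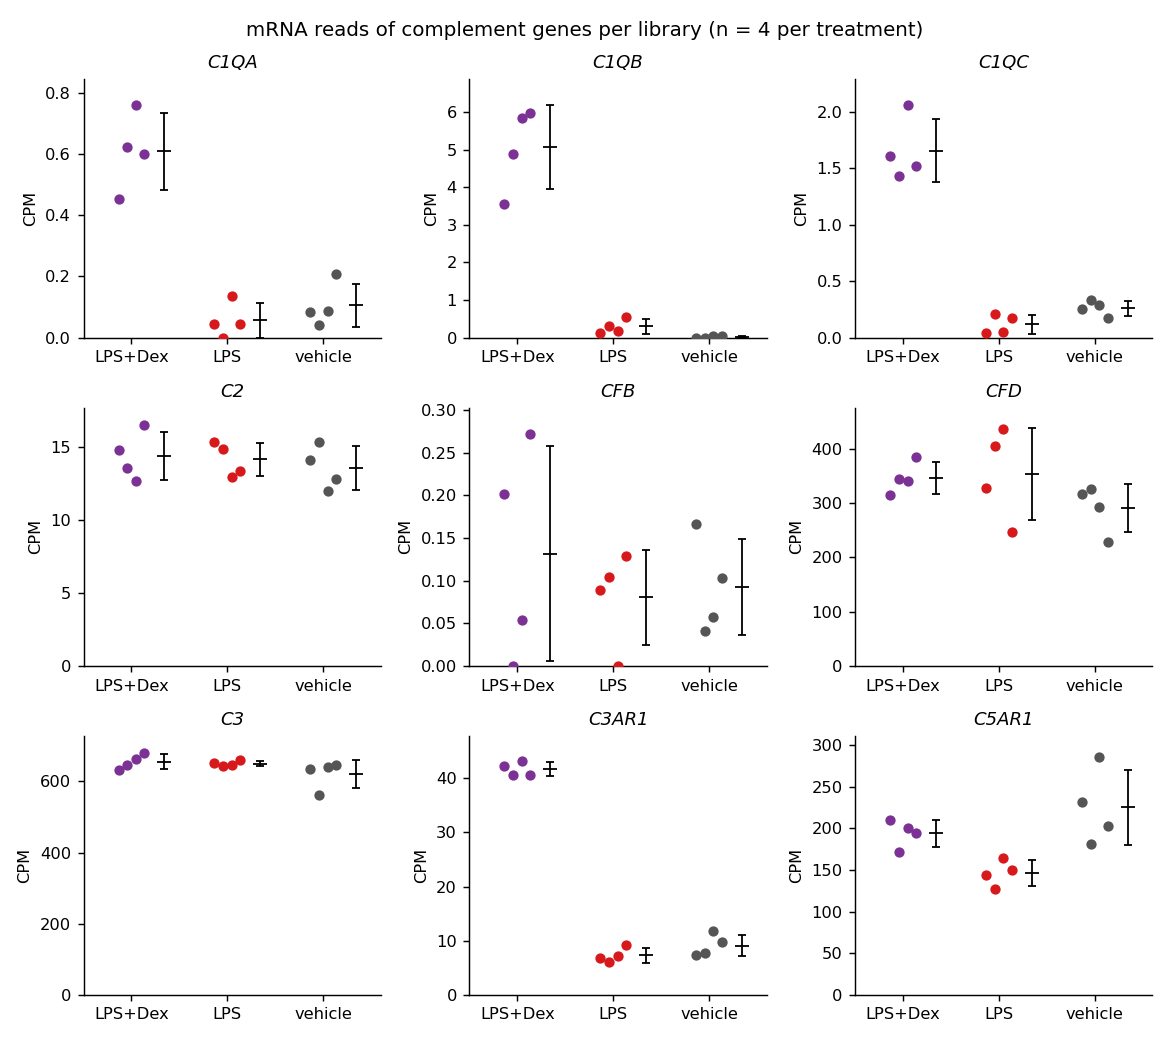
RNA level of each complement gene (CPM on TMM-scaled totals, linear axis, 1 panel per gene) in LPS+Dex, LPS and vehicle, with 1 point per library and the mean ± SD beside them (n = 4). The LPS+Dex points of C1QA, C1QB, C1QC and C3AR1 lay above all others, those of C5AR1 above LPS, and those of C2, C3, CFB and CFD overlapped both other groups.

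The 250 bases before the annotated starts of C1QA, C1QB and C3AR1, all higher with dexamethasone in every RNA library, are shown with the hexamer AGAACA, or its complement TGTTCT, in capitals. It is the core of the sequence that the glucocorticoid receptor binds as a dimer. The windows are from RefSeq (GRCh38.p14), 5′ to 3′ on the strand of the gene.
C1QA, chr1:22636213-22636462, plus strand: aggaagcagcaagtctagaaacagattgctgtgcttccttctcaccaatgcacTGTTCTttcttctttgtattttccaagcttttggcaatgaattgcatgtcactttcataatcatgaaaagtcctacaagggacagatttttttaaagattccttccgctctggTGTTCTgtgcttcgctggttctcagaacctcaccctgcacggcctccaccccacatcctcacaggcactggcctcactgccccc
C1QB, chr1:22652986-22653235, plus strand: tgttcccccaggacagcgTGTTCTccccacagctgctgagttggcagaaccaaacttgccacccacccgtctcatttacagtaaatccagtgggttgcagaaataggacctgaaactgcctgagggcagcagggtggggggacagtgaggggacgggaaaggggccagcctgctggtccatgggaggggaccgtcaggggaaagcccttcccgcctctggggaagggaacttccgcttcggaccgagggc
C3AR1, chr12:8066360-8066609, minus strand: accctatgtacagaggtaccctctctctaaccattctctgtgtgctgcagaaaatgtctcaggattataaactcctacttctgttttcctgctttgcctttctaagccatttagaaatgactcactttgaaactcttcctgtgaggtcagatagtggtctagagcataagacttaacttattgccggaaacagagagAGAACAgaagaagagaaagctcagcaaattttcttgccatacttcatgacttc
RefSeq windows of 300 bases, reaching 50 bases past the start, were at hand for 7 of the 9 genes, without C1QC and C3. C1QA had a further window, starting at base 22636378, so members are counted by gene and the background by window. The full palindrome, AGAACA, any 3 bases and TGTTCT, was in the windows of 0 of these 7 genes, and in 0.00285% of 35116 human windows of this length. The hexamer, searched on both strands and chosen after the sequences had been seen, was in windows of 5 of 7 genes (C1QA, C1QB, C3AR1, CFB and C5AR1) and in 14.8% of all windows. It lay 197 and 84 bases before the start in C1QA, 232 before it in C1QB and 53 before it in C3AR1. It was also present 43 bases before the start of CFB, which had at most 5 counts in any RNA library. In the C5AR1 window it lay 31 bases past the start site of that window. This window began at base 47309611, inside the gene as listed (47307477 to 47322066), so the position is not from the listed start. The kB motif was in the windows of C1QB and CFB, and in 11.3% of all windows. These matches describe letters and not binding.

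C3AR1, the receptor of C3a (ENSG00000171860, chromosome 12, 8056844 to 8066359), was higher with dexamethasone in both assays. Its RNA level was 42.2, 40.6, 43.2 and 40.6 CPM in LPS+Dex, 6.78, 5.98, 7.15 and 9.18 CPM in LPS, and 7.33, 7.68, 11.7 and 9.68 CPM in vehicle. The LPS+Dex libraries lay close together and far above both other groups, which overlapped. LPS+Dex exceeded LPS by 2.51 ± 0.16 on the log2 scale (SE, adjusted p = 3.3e-08), a fold of 5.72, and vehicle by 2.19 ± 0.15 (adjusted p = 2.7e-08). LPS against vehicle gave -0.33 ± 0.16 (SE, adjusted p = 0.081). That difference was called when vehicle 1, vehicle 2 or LPS 4 was left out, with values of -0.46 to -0.18 and adjusted p-values of 0.021 to 0.28 over all omissions.

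C3AR1 footprints were 94.3, 101, 92.3, 299 and 96.9 CPM in LPS+Dex, 12.3, 14.3, 12.7, 50.3 and 14.4 CPM in LPS, and 17.1, 13.9, 19.7, 43.5 and 14.8 CPM in vehicle. Every LPS+Dex library exceeded every other library, those numbered 4 included. The log2 difference between LPS+Dex and LPS was 2.72 ± 0.5 (SE, adjusted p = 0.0013), and 2.84 ± 0.09 without the libraries numbered 4, where the means were 96.1 ± 3.76 CPM in LPS+Dex, 13.4 ± 1.08 CPM in LPS and 16.4 ± 2.59 CPM in vehicle (SD, n = 4 each). Against vehicle, LPS+Dex was higher by 2.66 ± 0.5 (SE, adjusted p = 5e-04). LPS against vehicle gave -0.07 ± 0.48 over all libraries (SE, adjusted p = 0.92) and -0.29 ± 0.1 without those numbered 4 (adjusted p = 0.01).

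C5AR1, the receptor of C5a (ENSG00000197405, chromosome 19, 47307477 to 47322066), fell with LPS and was higher when dexamethasone was added. Its RNA level was 210, 172, 200 and 194 CPM in LPS+Dex, 144, 127, 164 and 150 CPM in LPS, and 231, 181, 285 and 203 CPM in vehicle. The LPS libraries were below all libraries of both other groups, and LPS+Dex and vehicle overlapped. The fall with LPS was -0.62 ± 0.12 on the log2 scale (SE, adjusted p = 0.00063), and LPS+Dex exceeded LPS by 0.41 ± 0.12 (SE, adjusted p = 0.023), a fold of 1.33. The rise with dexamethasone was not called when LPS 1, LPS 2, LPS+Dex 1 or LPS+Dex 3 was left out, with differences of 0.34 to 0.47 and adjusted p-values of 0.0047 to 0.064 over the 12 omissions. LPS+Dex against vehicle gave -0.21 ± 0.12 (SE, adjusted p = 0.15), which was called without vehicle 2 (-0.3, adjusted p = 0.035) and had an adjusted p of 0.041 with the replicate block.

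C5AR1 footprints were 723, 659, 678, 2400 and 711 CPM in LPS+Dex, 448, 465, 446, 1530 and 446 CPM in LPS, and 783, 704, 742, 1740 and 570 CPM in vehicle. Without the libraries numbered 4 the LPS libraries again lay below both other groups, at 693 ± 29.5 CPM in LPS+Dex, 451 ± 9.22 CPM in LPS and 700 ± 92.3 CPM in vehicle (SD, n = 4 each). Over all libraries no C5AR1 footprint difference was called: 0.63 ± 0.47 for LPS+Dex against LPS (SE, adjusted p = 0.45) and -0.44 ± 0.47 for LPS against vehicle (adjusted p = 0.46). With the replicate number as a block these were 0.62 ± 0.09 (adjusted p = 2.6e-05) and -0.54 ± 0.09 (adjusted p = 3.7e-05), and without the libraries numbered 4 they were 0.62 ± 0.07 and -0.64 ± 0.07 (adjusted p = 2.7e-07 and 6.2e-08). C5AR2, the second receptor of C5a, was in RNA at 61.9 ± 6.57 CPM in LPS+Dex, 81.3 ± 3.74 CPM in LPS and 158 ± 18.9 CPM in vehicle (SD, n = 4 each). LPS lowered it against vehicle by -0.96 ± 0.1 (SE, adjusted p = 9.8e-07), and it was lower in LPS+Dex than in LPS by -0.39 ± 0.1 (adjusted p = 0.0061). Its footprints gave 0.09 ± 0.51 for LPS+Dex against LPS (adjusted p = 0.95) and 0.05 ± 0.1 without the libraries numbered 4. Whether C5AR2 differed from C5AR1 was not tested.

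**Figure D3:**
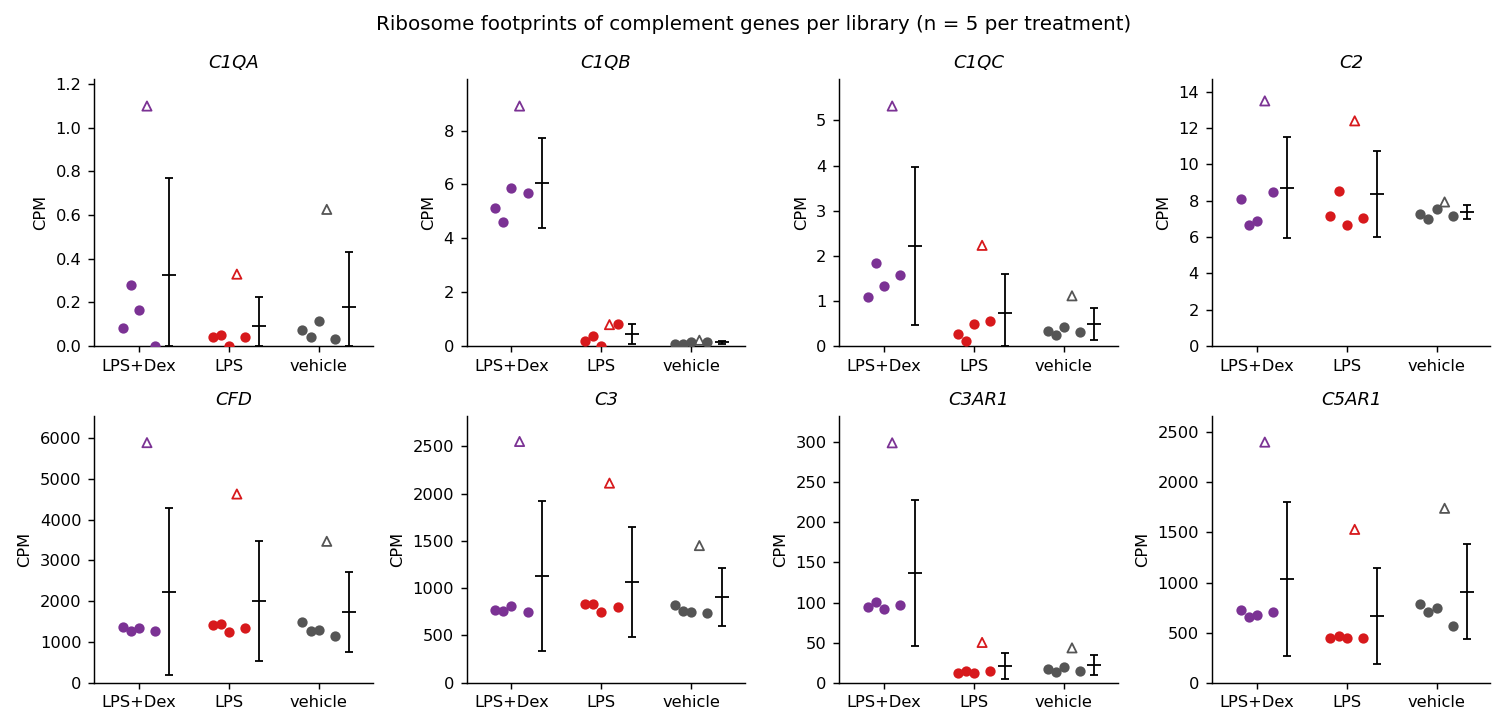
Footprint level (CPM on TMM-scaled totals, linear axis, 1 panel per gene) of 8 complement genes in LPS+Dex, LPS and vehicle, with 1 point per library, open triangles for the libraries numbered 4 and the mean ± SD beside them (n = 5). Bars are drawn down to 0 where the SD exceeds the mean, and CFB, with no footprint count, is not drawn. The triangles of C3, CFD, C3AR1 and C5AR1 lay above the other libraries of their treatment, and C3AR1 and C1QB were highest with LPS+Dex among circles and triangles alike.

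C3, the component on which the pathways converge (ENSG00000125730, chromosome 19, 6677704 to 6720650), showed no called difference in either assay. Its RNA was 633, 647, 663 and 680 CPM in LPS+Dex, 652, 643, 645 and 660 CPM in LPS, and 636, 563, 640 and 645 CPM in vehicle. The groups overlapped, and vehicle replicate 2 was low. The log2 difference was 0.01 ± 0.06 for LPS+Dex against LPS (SE, adjusted p = 0.89) and 0.07 ± 0.06 for LPS against vehicle (adjusted p = 0.34). C3 footprints without the libraries numbered 4 averaged 774 ± 25.7 CPM in LPS+Dex, 804 ± 41.1 CPM in LPS and 767 ± 38.4 CPM in vehicle (SD, n = 4 each). The libraries numbered 4 were at 2550, 2110 and 1450 CPM in LPS+Dex, LPS and vehicle. With all libraries the footprint differences carried an SE of 0.39 and none was called, and without those numbered 4 they were -0.05 ± 0.05 for LPS+Dex against LPS and 0.06 ± 0.05 for LPS against vehicle.

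CFD, factor D, the serine protease of the alternative pathway (ENSG00000197766, chromosome 19, 859664 to 863641), also showed no called difference over all libraries. Its RNA was 314, 344, 341 and 384 CPM in LPS+Dex, 328, 404, 436 and 247 CPM in LPS, and 317, 325, 293 and 229 CPM in vehicle. The 3 groups overlapped, and the LPS libraries were the most spread. No CFD difference was called in RNA (LPS+Dex against LPS -0.03 ± 0.15, LPS against vehicle 0.28 ± 0.15, SE, adjusted p = 0.89 and 0.13), except that LPS against vehicle reached 0.42 (adjusted p = 0.011) without LPS 4. Without the libraries numbered 4, CFD footprints averaged 1320 ± 53.2 CPM in LPS+Dex, 1360 ± 88.1 CPM in LPS and 1300 ± 145 CPM in vehicle (SD, n = 4 each). The libraries numbered 4 were at 5890, 4630 and 3470 CPM in LPS+Dex, LPS and vehicle, above every other library of their treatment.

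C2, the protease component of the classical convertase (ENSG00000166278, chromosome 6, 31897783 to 31945672), was at 14.8, 13.6, 12.7 and 16.5 CPM in LPS+Dex RNA, 15.4, 14.9, 13 and 13.4 CPM in LPS RNA, and 14.1, 15.4, 12 and 12.8 CPM in vehicle RNA. The 3 groups overlapped, and the differences were 0.03 ± 0.11 for LPS+Dex against LPS and 0.06 ± 0.11 for LPS against vehicle (SE, adjusted p = 0.88 and 0.65). Its footprints without the libraries numbered 4 averaged 7.52 ± 0.895 CPM in LPS+Dex, 7.36 ± 0.824 CPM in LPS and 7.23 ± 0.227 CPM in vehicle (SD, n = 4 each). C2 overlaps ZBTB12 and C2-AS1 in the RefSeq annotation, and the strand setting of the counting is not given in the sources used here, so reads of these genes may be mixed.

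CFB, factor B (ENSG00000243649, chromosome 6, 31946095 to 31952084), the neighbour of C2 and the protease that CFD activates, was close to 0 in the deposited counts. It had 4, 0, 1 and 5 RNA counts in LPS+Dex, 2, 2, 0 and 3 in LPS, and 4, 1, 2 and 3 in vehicle, and 0 footprint counts in all 15 libraries. No difference was detectable at this depth, and 0 footprint counts allow up to 0.115 to 0.261 CPM per library. How reads shared by overlapping gene models were counted is not given in the sources used here, so the low counts of CFB describe the table and not necessarily the transcript.

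Against vehicle, LPS alone gave calls in both directions. In RNA 1 of 7 rose (C1QB) and 2 fell (C1QC and C5AR1), where 62.2% of all genes tested changed (28.6% rose and 33.6% fell). C1QB and C1QC passed the RNA filter through their LPS+Dex libraries, which this comparison does not use. Both failed it when only LPS and vehicle were fitted, so the RNA count is given as description. In footprints 1 of 7 rose (C1QB) and none fell, where 52.6% changed (25.4% rose and 27.2% fell). C1QB footprints reached the filter level in 5 LPS+Dex, 2 LPS and 0 vehicle libraries. C5AR1 was also called, as lower, with the replicate block (2 of 7, with 67.1% of all genes called), and C5AR1 and C3AR1 without the libraries numbered 4 (3 of 7, with 67.5%). The median log2 difference of the 7 genes was 0.06 in RNA and 0.22 in footprints, beside -0.05 and -0.04 over all genes. For LPS+Dex against vehicle, 3 of 7 rose in RNA and 3 of 7 in footprints, each time C1QB, C1QC and C3AR1, and none fell, where 60.2% of genes changed in RNA (29.2% rose, 31% fell) and 46.4% in footprints (24.4% rose, 22% fell). C1QB in both assays and C1QC in RNA entered these tests mainly through their LPS+Dex libraries, so this count too is given as description. C1QC footprints reached the filter level in 5 LPS+Dex, 3 LPS and 2 vehicle libraries. The 3 comparisons share their libraries in pairs, so their counts are not independent of each other.

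Translational efficiency, the footprint change minus the RNA change, was not called for any of the 7 genes in any comparison. The edgeR test called 0 of 7 in each of the 3 comparisons, with 0 of 7 at an unadjusted p under 0.05 for LPS against vehicle, 1 of 7 for LPS+Dex against LPS and 0 of 7 for LPS+Dex against vehicle, and DESeq2 also called 0. Over all 11944 genes tested, 1.74% were called for LPS against vehicle, 0.0754% for LPS+Dex against LPS and 1.93% for LPS+Dex against vehicle. With DESeq2 these shares were 3.38%, 0.193% and 3.86%. Without the footprint libraries numbered 4, edgeR again called 0 of 7 in each comparison, where 5.47%, 0.426% and 9.08% of all genes tested were called. The 1 gene at an unadjusted p under 0.05 was C1QC, at -2.08 ± 0.95 for LPS+Dex against LPS (SE, adjusted p = 0.9), where few footprint and RNA counts entered in the LPS group. With the replicate number as a block, C3AR1 gave 0.43 ± 0.16 (adjusted p = 0.074) and C5AR1 0.32 ± 0.12 (adjusted p = 0.079) for LPS+Dex against vehicle. The SE of C3 and C5AR1 in the block fit was 0.12. In the main fit, for LPS+Dex against vehicle, it was 0.44 for C3 and 0.54 for C5AR1. Over the 7 genes it ran from 0.24 for C2 to 1.07 for C1QB, so changes of such sizes could have been missed.

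The ratio of footprint CPM to RNA CPM, computed with 0.1 CPM added to each level, is a description that depends on how much of each mRNA is coding sequence and gives no efficiency between genes. It was high for CFD and the receptors. In vehicle cells it was 5.95 for CFD (percentile 99.5 of 10827 genes whose mean over all libraries was at least 1 CPM in both assays), 4.03 for C5AR1 (98.5), 2.38 for C3AR1 (93.7), 1.45 for C3 (81) and 0.546 for C2 (34.9). In LPS+Dex cells it was 6.45 for CFD, 5.32 for C5AR1 and 3.28 for C3AR1, and 1.19 for C1QB, which had too few counts in vehicle to be read. Without the libraries numbered 4, CFD was at 3.81 in LPS+Dex and 4.46 in vehicle, so that LPS+Dex was then the lower. C5AR1 was at 3.57 in LPS+Dex and 3.11 in vehicle, and C3AR1 at 2.3 and 1.79.

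**Figure D4:**
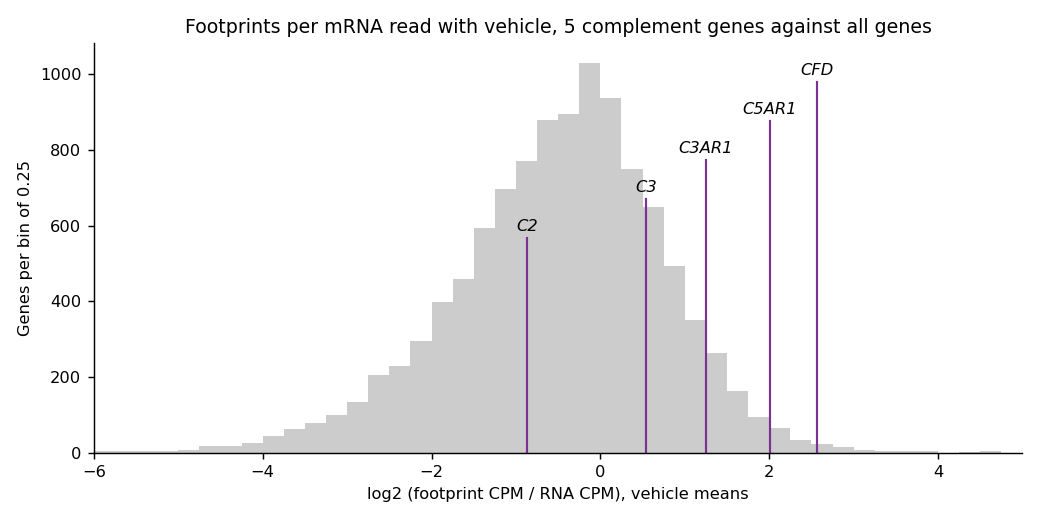
Number of genes (y axis) by log2 of footprint CPM over RNA CPM (x axis) in vehicle cells for 10827 genes, with 5 complement genes marked by lines. CFD (2.57), C5AR1 (2.01) and C3AR1 (1.25) lay on the right of the distribution, whose median was -0.39, and C2 (-0.87) on the left.

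Other genes of the complement system were taken from a textbook list of 50, all found in the tables, of which 26 were tested in RNA and 21 in footprints. For LPS+Dex against LPS, 4 of the 26 rose and 4 fell in RNA with a median of 0, where 15.5% of all genes tested rose and 15.4% fell. PTX3 changed most upward (1.27 ± 0.09, SE) and C1S, the protease partner of C1q, most downward (-1.08 ± 0.19). CD55, which shields cells from convertases, rose by 0.39 ± 0.07 and C5 by 0.39 ± 0.12, while SERPING1, the C1 inhibitor, fell by 0.63 (log2, adjusted p = 0.00055). In footprints 1 rose, PTX3, and none fell, against 4 and 0 with the replicate block and 5 and 2 without the libraries numbered 4. Of all genes tested in footprints, 17.1% were called, 30.9% with the block and 31.5% without those libraries. C1QB and C1QC, which rose, and C1S, which fell, encode parts of the same C1 complex with opposite RNA changes, with C1R at -0.79 ± 0.29 (SE, adjusted p = 0.051). C1S RNA averaged 1.97 CPM in LPS+Dex and 4.17 CPM in LPS, and its footprints gave -0.23 ± 0.57 (SE, adjusted p = 0.87). The difference between these genes was not tested.

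For LPS against vehicle, 6 of the 26 rose and 12 fell in RNA, with a median of -0.22. Of all genes tested, 28.6% rose and 33.6% fell. The risers included PTX3 (2.3 ± 0.1, SE), C1S (1.83 ± 0.19), C1R (1.47 ± 0.29) and SERPING1 (1.34 ± 0.11). COLEC12 fell most, at -2.01 ± 0.32, and C5 (-1.52 ± 0.11), ITGAM (-1.05 ± 0.09) and VSIG4 (-0.92 ± 0.12), a complement receptor of macrophages, were also lower. In footprints 3 of 21 rose and 4 fell, against 6 and 6 with the replicate block and 5 and 8 without the libraries numbered 4. The share of all genes called was 52.6%, 67.1% and 67.5% in the same order. For LPS+Dex against vehicle, 6 rose and 11 fell in RNA, with PTX3 (3.56 ± 0.1) and THBD (-2.61 ± 0.19) at the ends. Over all genes tested, 29.2% rose and 31% fell.

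The RNA profiles most like those of the complement genes were found by Pearson's r of log2 CPM over the 12 RNA libraries among 9902 genes, as a description in which the treatment means dominate. C3AR1 was closest to FZD7 (r = 0.996) and TES (0.994), and C1QB to CNKSR3 and FSTL3 (both 0.992). C1QC was closest to KLF4 (0.979) and CLTCL1 (0.977), and C5AR1 to ELK3 (0.946) and EMP1 (0.943). For C2, CFD and C3, with no called difference, the best r was 0.904, 0.893 and 0.885.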

How the data were processed

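The authors deposited raw read counts per Ensembl gene, 1 table for RNA-seq and 1 for footprints, with no scaling. Per the submitters' processing notes, the tools were Bowtie2 2.4.5 (footprints), featureCounts 2.0.1, STAR 2.7.10a and DESeq2 1.26.0, on GRCh38. What each tool did, the annotation, and how strand, feature and repeated matches were handled in counting is not given in the sources used here. The counts were tested here with edgeR 4.0.16 in R 4.3.3: filterByExpr (minimum count 10, total 15), TMM, quasi-likelihood F test, 2-sided, Benjamini-Hochberg over all genes, called at an adjusted p under 0.05. RNA (12 libraries) and footprints (15 libraries) were fitted separately, and translational efficiency in 1 fit of 27 libraries. SE is of the log2 fold change. Levels are CPM on TMM-scaled totals, and ratios of summed counts carry exact 95% intervals.

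After treatment means were removed, 15 of 15 pairs of footprint libraries sharing a number had r over 0.1 (lowest 0.182), as had 34 of 60 pairs with unlike numbers. Leaving out number 4, the shares were 3 of 12 and 2 of 36. The median r was then 0.045 for shared and -0.015 for unlike numbers, so the likeness of shared numbers rested largely on number 4. Footprints were also fitted with the number as a block. The labels do not state a pairing and these values do not establish one, so the block is an alternative fit and not a known pairing. The alternatives were DESeq2 1.42.0, RLE scaling, no filter, the block, the compared treatments alone and each library left out. The 9 genes are all named, and the 50 other complement genes come from a textbook list, of which the most changed are named, with examples by role. Genes and lists were chosen with earlier results of these data known. Promoters are RefSeq's, GRCh38.p14.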

Additional observations from a re-analysis of the deposited data

Results flagged for a closer look

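In groups of 4 or 5 libraries, the highest or lowest was set against Dixon's 95% value, which chance passes in about 1 of 20 groups. It was passed in 20 of the 51 groups tested, and 19 of these were footprint libraries numbered 4, all high. The groups are genes read in the same libraries, so an unusual library can flag many genes at once. The 20 are therefore not independent of each other. In LPS+Dex, LPS and vehicle, replicate 4 held C3 at 2550, 2110 and 1450 CPM, CFD at 5890, 4630 and 3470 CPM, C5AR1 at 2400, 1530 and 1740 CPM, and C3AR1 at 299, 50.3 and 43.5 CPM. In the same order it held C1QC at 5.32, 2.23 and 1.11 CPM and C1QA at 1.1, 0.329 and 0.626 CPM. C2 passed the limit in LPS+Dex replicate 4, at 13.5 CPM, and not in the other treatments, where replicate 4 was at 12.4 CPM with LPS and 7.93 CPM with vehicle. The cause was not tested. In RNA, vehicle replicate 2 was low for C3, at 563 CPM.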

How the results depend on the processing

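Over the member results and alternatives run, 1425 kept their side of the threshold, 14 became called and 28 lost the call, and none changed the direction of a called value. The 1425 include CFD footprints with DESeq2, which had no adjusted p. Genes that failed the filter in an alternative fit are not in these counts. For RNA, LPS against vehicle, 3 genes were called, and 1 when only these treatments were fitted, as C1QB and C1QC then failed the filter. Of all genes tested, 62.2% and 59.1% were called in these fits. For footprints, LPS against vehicle, 1 gene was called, against 2 with the replicate block, 0 with no filter, 0 with only these treatments and 3 without the libraries numbered 4. The share of all genes called was 52.6%, 67.1%, 36%, 52.8% and 67.5%, in this order. For footprints, LPS+Dex against LPS, 2 were called, against 4 with the block and 4 without those numbered 4, where the share of all genes called was 17.1%, 30.9% and 31.5%. In RNA, r was over 0.1 in 7 of 12 pairs sharing a number (median 0.207) and in 13 of 36 others (median -0.042), so not every pair met the rule for pairing, and the block gave 2 called genes for LPS against vehicle (C1QC lost, adjusted p = 0.07), 4 for LPS+Dex against LPS and 4 for LPS+Dex against vehicle (C5AR1 gained). The block called 66.4%, 36.5% and 64.5% of all RNA genes tested in these comparisons. Leaving out 1 library gave 2 to 5 called genes in RNA for LPS against vehicle (5 without LPS 4), 3 to 5 for LPS+Dex against LPS and 3 to 5 for LPS+Dex against vehicle (5 without vehicle 2). In footprints it gave 0 to 1 (0 without each of the 11 libraries named for C1QB), 2 to 3 and 3 to 3, and for translational efficiency 0. Over these omissions the share of all RNA genes called was 57.5% to 62%, 24.6% to 34% and 54.5% to 61%. It was 58.9% for LPS against vehicle without LPS 4, and 60.9% for LPS+Dex against vehicle without vehicle 2. In footprints the shares were 48.5% to 56%, 14.2% to 19.2% and 41.5% to 49.1%. For translational efficiency they were 1.13% to 2.41%, 0.0332% to 0.108% and 1% to 2.85%. CPM on unscaled totals were 0.718 to 1.2 times those on TMM totals, and 48 of 54 means moved by less than 1 SD. DESeq2 gave CFD footprints no adjusted p. Depth limits C1QA and CFB in both assays and the LPS and vehicle levels of C1QB and C1QC, which rest on at most 13 counts per RNA library.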
